A study of Mus musculus with 6 samples.

Results

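Fdxr encodes ferredoxin reductase, a flavoprotein of the inner mitochondrial membrane that the series title names, and it is 1 of the 149 genes in the deposited table (ENSMUSG00000018861). It was taken as the row with that symbol. RNA from the reperfused region of the heart of male C57BL/6 mice (genotype wt) was sequenced in 6 libraries, 3 per group. The ischaemia-reperfusion (IR) group had its left anterior descending artery closed for 45 min through an open chest, followed by 24 h of restored flow. The TMAO+IR group had the same surgery and drank 0.12% trimethylamine N-oxide (TMAO, a gut-derived amine oxide) for 4 weeks before and during it. All 6 libraries therefore come from injured tissue, and no uninjured or TMAO-only group was analysed here. The labels number libraries within groups without naming animals or ages or stating whether tissue was pooled, so p-values measure the spread between libraries, which may be technical. None of the 14 cardiomyocyte markers checked is among the 149 genes, so the tissue label could not be checked against them.

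Ferredoxin reductase takes electrons from NADPH and passes them to the ferredoxins, small iron-sulfur proteins of the mitochondrial matrix. Ferredoxin 1 hands them to mitochondrial cytochrome P450 enzymes of steroid, bile acid and vitamin D metabolism, and ferredoxin 2 hands them to the machinery that builds iron-sulfur clusters. Respiratory complexes I, II and III and aconitase carry such clusters, so in heart muscle the enzyme stands upstream of respiration. Human FDXR is also known as a target of the tumour suppressor p53.

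On GRCm38 the gene occupies positions 115268024 to 115277050 of chromosome 11, minus strand. GENCODE release M21 gives it 4 transcripts. Fdxr-201 is the only coding one, with 12 exons, 1948 bp and 494 codons. Fdxr-202, Fdxr-203 and Fdxr-204 are processed transcripts of 861, 544 and 1499 bp without a coding region. No other annotated gene overlaps the locus. Its nearest neighbours are Grin2c, 781 bp beyond the 3′ end, and Fads6, 2572 bp upstream, and none of the 55 other genes annotated within 500000 bp on either side is in the deposited table. A search of Fdxr-201 against all annotated transcripts (blastn, E-value limit 1e-05) found no hit in another gene, so no annotated near-identical copy was found that could share its reads.

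**Figure D1:**
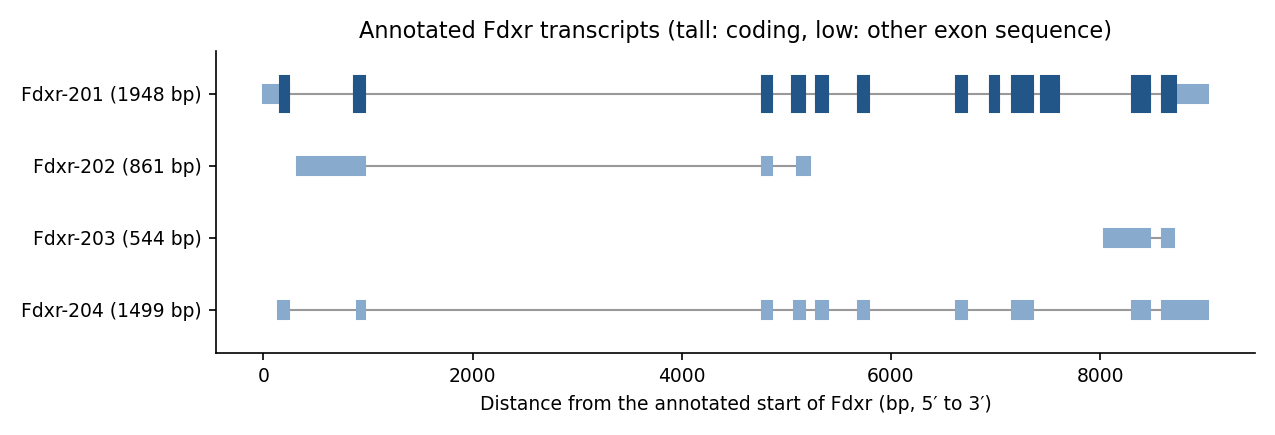
The 4 annotated Fdxr transcripts drawn to scale from the annotated start (x axis, distance in bp, 5′ to 3′), with coding sequence as tall boxes, other exon sequence as low boxes and introns as lines. The coding transcript Fdxr-201 (1948 bp) spans all 12 exons, and each of the other 3 is shorter.

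The RefSeq gene model reaches 115277101, which is 51 bases past the start of Fdxr-201. The stretch just upstream of that end is shown because it lies outside both the GENCODE and the RefSeq model and the series title names the eIF2α pathway, whose transcription factor ATF4 binds C/EBP-ATF elements. It covers chr11:115277102-115277219 on the minus strand (118 bases, RefSeq promoter table, GRCm38.p6), with capitals marking an inverted CCAAT box followed by a GC box.
Fdxr: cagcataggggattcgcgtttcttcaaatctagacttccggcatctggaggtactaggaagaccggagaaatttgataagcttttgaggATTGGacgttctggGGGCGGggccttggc
Both strands were searched for 4 motifs, and the matches do not overlap. The GC box (GGGCGG) had 1 match here and occurs in 12.6% of the 32851 promoter windows at the same place, and the CCAAT box (CCAAT) had 1 match and occurs in 15.9%. The C/EBP-ATF element (TGATGNAAN) had 0 matches and occurs in 1.37% of windows, and the TATA element (TATAAA) had 0 and occurs in 5.96%. The data measure RNA only, so no deposited value bears on binding to this stretch.

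Fdxr RNA was lower in every TMAO+IR library than in every IR library, at about the 2-fold limit of the deposited list. The fragment counts were 147, 163 and 189 in IR replicates 1, 2 and 3, and 80, 79 and 72 in TMAO+IR replicates 1, 2 and 3. In FPKM, the authors' values scaled to transcript length and library size, the levels were 3.65, 3.81 and 4.33 in IR and 2.23, 1.88 and 1.77 in TMAO+IR. IR replicate 3 was the highest library and TMAO+IR replicate 3 the lowest, and the groups did not overlap on either scale. The lowest IR level lay 1.42 FPKM above the highest TMAO+IR level, a gap 3.99 times the larger of the group SDs. In bulk tissue, fewer cells that express Fdxr and less Fdxr RNA per cell cannot be told apart.

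The mean level was 3.93 ± 0.36 FPKM (SD, n = 3) in IR and 1.96 ± 0.24 FPKM (SD, n = 3) in TMAO+IR. Against each of the 3 IR libraries, the 3 TMAO+IR libraries stood at 40.9% to 61.1% of the FPKM level, and 5 of these 9 pairs were at least 2-fold lower. The difference of the means was -1.97 FPKM. An exact permutation test over the libraries (2-sided) gave p = 0.1, which is the smallest value that 3 against 3 libraries allow. It therefore cannot reach 0.05 in this design.

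**Figure D2:**
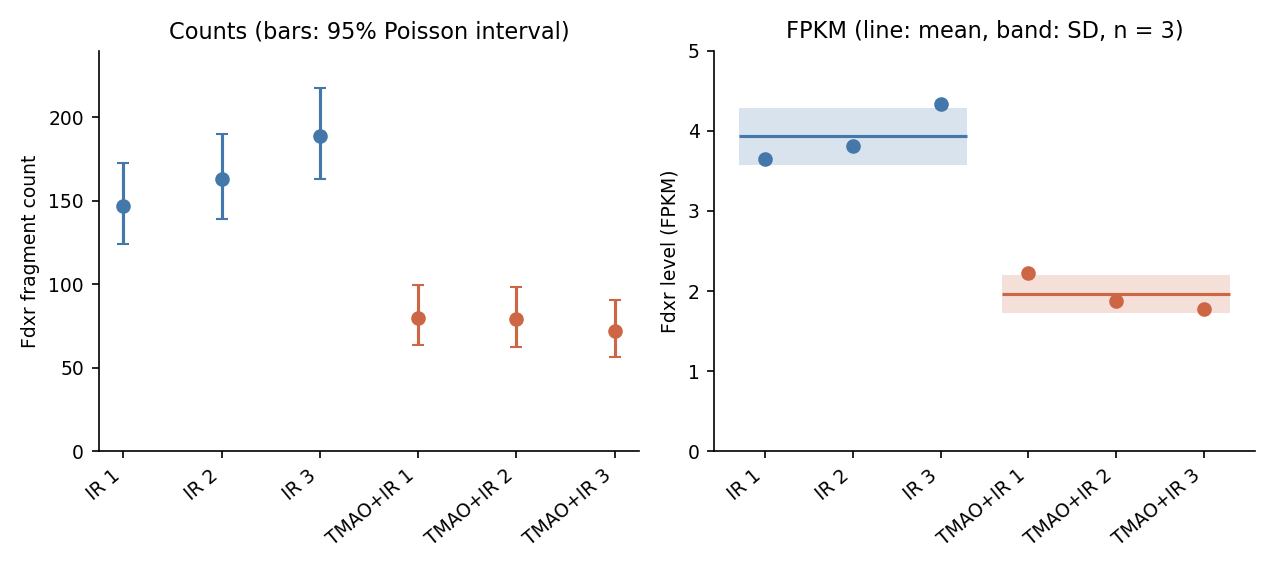
Fdxr in each of the 6 libraries as fragment count (left, bars are exact 95% Poisson intervals, counting error only) and as FPKM (right, line and band are the mean and SD of 3 libraries). The IR libraries hold 147 to 189 fragments and the TMAO+IR libraries 72 to 80, and no TMAO+IR library reaches the lowest IR library.

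In the authors' deposited table Fdxr has a log2 fold change of -1.004, a p-value of 6.74e-05 and an FDR of 0.0065. No gene of that table has an FDR above 0.0487 or a change smaller than 2-fold, so the presence of Fdxr in it already states both. By the ratio of FDR to p-value, the authors tested about 12721 genes, of which the 149 listed are 1.17% and the 27 listed as lower in TMAO+IR are 0.212%. The same ratio puts Fdxr at a rank of at most 132 by p-value, within the first 1.04% of the tested genes. Among the listed genes it ranks 63 by p-value, so at most 69 genes with a smaller p-value were left off the list by its fold limit or for other reasons not given in the sources used here. By size of fold change Fdxr ranks 147 of 149. The 2 genes closer to the limit in the authors' deposited table are the retinol-binding protein gene Rbp7, which is also lower, and Cyp1b1, a cytochrome P450 gene that is higher. Slfn8, a Schlafen family gene that is higher with a log2 value of 1.01 in that table, stands next above it.

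A fit of the counts across all 149 genes (edgeR, quasi-likelihood test) gave Fdxr a log2 fold change of -0.999 ± 0.33 (SE). TMAO+IR thus stood at 50.02% of the IR level, with a 95% interval from 32.1% to 78.1%. The adjusted p over the 149 genes was 0.00346 in edgeR. All of the 149 genes passed there (100%), 27 of them lower (18.1%), because they had been selected on this difference, so that p is not independent evidence. Adjusted over the 12721 genes that the deposited FDR implies, the edgeR p of Fdxr was 0.295 and its call was lost. Here and below, this adjustment ranks every unlisted gene behind the listed ones, as their counts are not in the table. Its values are therefore upper bounds. A gene that misses the threshold this way is not shown to miss it over all tested genes. Under that adjustment 50 listed genes passed (33.6%), 12 of them lower (8.05%). Groups did not overlap in counts scaled to library size in 145 of the 149 genes (97.3%), and 25 of these were lower (16.8%), so a gap between the groups is common to nearly the whole list.

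Fdxr varied little inside the groups, which is given as a description without a test. Its coefficient of variation (CV, SD over mean of FPKM) was 9.05% in IR and 12.3% in TMAO+IR, against medians of 30.9% and 23.9% over the listed genes and of 17.2% and 26.9% over the 27 lower genes. From the lowest, it ranks 11 in IR, 23 in TMAO+IR and 4 by the mean of both, among 148 genes for which a CV exists in both groups. Counting error alone gives a CV of 7.75% at the mean count of IR and 11.4% at that of TMAO+IR. The unscaled counts had CVs of 12.7% and 5.66%, and an SD from 3 libraries is itself imprecise. The per-gene dispersion that edgeR estimated for Fdxr, moderated over the listed genes, was a biological coefficient of variation of 27.0%. The edgeR interval comes from the quasi-likelihood test, which has a dispersion step of its own, so 27.0% alone does not give its width. The ratio of the pooled counts, 231 against 499 fragments scaled to library size, was 49.6% with an exact 95% interval of 42.3% to 58.1%. This interval covers counting error only and compares these libraries, not the conditions.

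**Figure D3:**
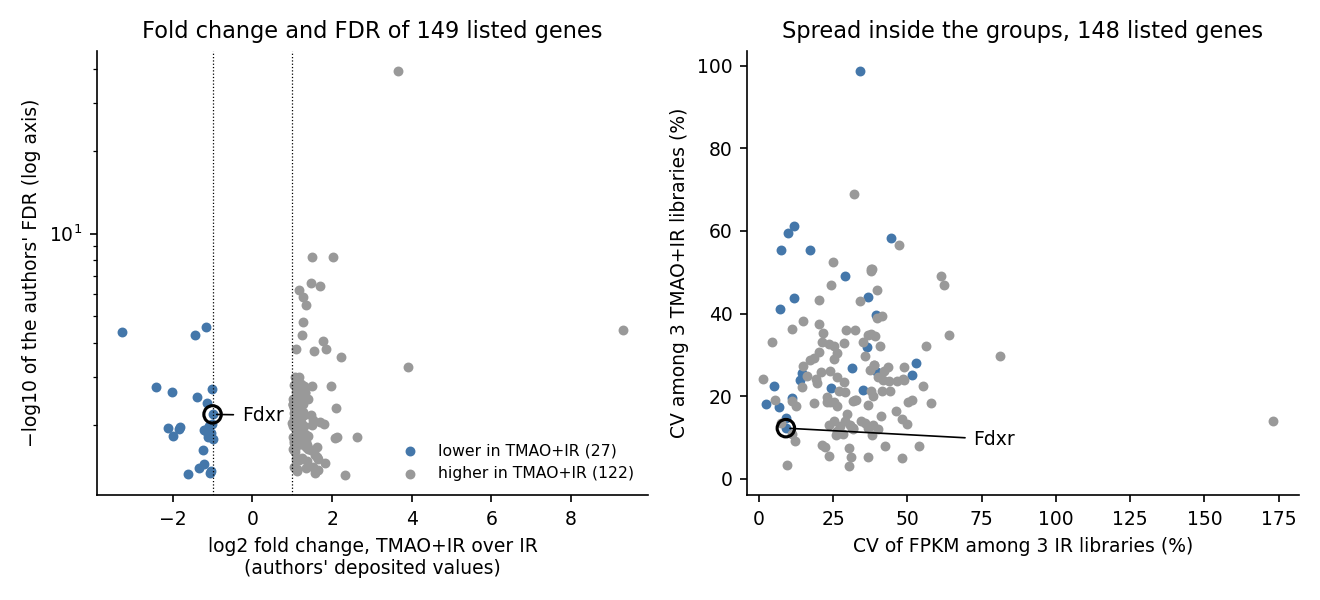
Fdxr (circled) among the listed genes, by the authors' deposited log2 fold change and FDR (left, y axis on a log scale of −log10 FDR, dotted lines at the limits of the list) and by the CV of FPKM among the 3 libraries of each group (right, 148 genes). Fdxr sits at the fold limit on the left and, with CVs of 9.05% and 12.3%, near the lower left corner on the right.

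The FPKM and the counts of Fdxr carry the same information. Dividing count by FPKM and recovered library size gave an implied transcript length of 1945 to 1953 bp in the 6 libraries, against 1948 bp for Fdxr-201. A single fragment was worth 0.0229 to 0.0279 FPKM. For Fdxr, count and FPKM therefore amount to 1 value per library. This does not hold for every listed gene. The NADPH oxidase gene Cybb had 224 fragments at 2.28 FPKM in IR replicate 1. In IR replicate 2 it had fewer fragments, 182, at a higher level, 2.77 FPKM. Values are per gene and not per transcript, and use of the shorter Fdxr transcripts was not tested.

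Since Fdxr sits at the fold limit, its place in the list depended on single libraries. With the log2 ratio of mean FPKM calculated as in the authors' deposited table, leaving out 1 library moved the value between -1.11 (without TMAO+IR replicate 1) and -0.93 (without IR replicate 3). It stayed past the limit in 3 of the 6 cases and fell short without IR replicate 3, and likewise when replicate 2 (-0.97) or replicate 3 (-0.94) of TMAO+IR was dropped. In each of these cases the direction was unchanged. In the edgeR fit the log2 fold change ran from -1.10 to -0.92 when 1 library was left out, with the highest adjusted p, 0.0381, without TMAO+IR replicate 2. Scaling by TMM within the list gave -2.07, since it centres a list in which most genes rose.

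**Figure D4:**
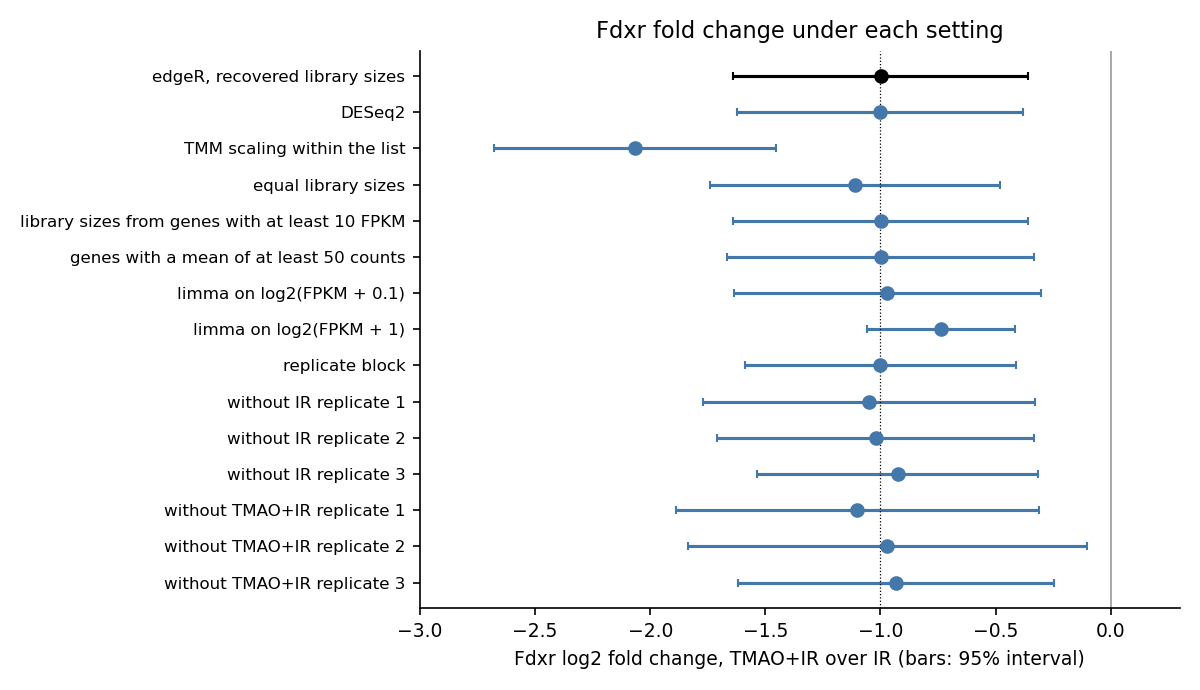
Fdxr log2 fold change (x axis, TMAO+IR over IR) with its 95% interval under the edgeR fit (black) and 14 other settings, with a dotted line at the 2-fold limit of the list. Every interval lies below 0, and TMM scaling within the list (-2.07) stands apart from the other settings.

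Of the genes that work with ferredoxin reductase, Fdxr alone is in the deposited table. The list of 9 redox partners held both ferredoxin genes and the mitochondrial P450 genes they serve, and the 8 others are not among the 149 genes. The same holds for all 29 genes of iron-sulfur cluster assembly, the 15 mitochondrial iron-sulfur proteins, the 14 genes of heme and lipoate synthesis, and the 29 genes of mitochondrial NADPH supply and flavoenzymes. Such absence means that a gene missed a limit of the list, was not among those tested or was not analysed here, and does not show equal levels.

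Genes of iron handling and of the pathways tied to Fdxr were few in the table, and those present moved the other way. Among 15 iron-handling genes, Tfrc, the transferrin receptor that brings iron into cells, was listed. Tfrc levels were 5.22, 6.94 and 4.35 FPKM in the IR libraries and 12.5, 11.3 and 16.0 FPKM in the TMAO+IR libraries. The Tfrc groups did not overlap (log2 1.22 ± 0.40 SE in edgeR, FDR 1.31e-06 in the authors' deposited table). Among 29 genes of the p53 list, 3 were listed, and Fdxr was the only one that fell. Pmaip1, which encodes the proapoptotic protein NOXA, was at 0.21, 0.23 and 0.15 FPKM in IR and 0.68, 0.65 and 0.58 FPKM in TMAO+IR. Gdf15, a stress cytokine, was at 1.23, 2.21 and 2.9 FPKM in IR and 5.69, 8.64 and 3.28 FPKM in TMAO+IR, its lowest TMAO+IR library lying just above its highest IR library. Both rose, with edgeR log2 values of 1.85 ± 0.40 and 1.48 ± 0.33 (SE) and an FDR of 0.00895 and 0.0239 in the authors' deposited table.

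The list for PERK, eIF2α and the integrated stress response held 38 genes, of which Gdf15 and Slc7a11 were listed and both rose. Slc7a11, the cystine carrier that feeds glutathione synthesis, was at 0.39, 0.37 and 0.13 FPKM in IR and 0.58, 0.71 and 0.93 FPKM in TMAO+IR. Neither Eif2ak3, which encodes PERK, nor Eif2s1, which encodes eIF2α, is among the 149 genes. With edgeR p-values adjusted over all 12721 implied genes, Tfrc did not pass (adjusted p = 0.293), and Pmaip1 (0.00403), Gdf15 (0.00534) and Slc7a11 (0.049) did. That adjustment passed 38 of the 122 higher genes. The median log2 fold change of all listed genes was 1.16 in edgeR. A rise of listed pathway members is therefore what most of the table shows. TMM scaling was run within the list and moves all of it down. Under it 7 of the 122 higher genes and all 27 lower genes passed in edgeR. None of the 9 other listed members of the pathway and marker lists passed, as for most higher genes. Their log2 values stayed above 0 (0.10 to 0.84).

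The deposited annotation gives Fdxr the terms mitochondrion, mitochondrial inner membrane, NADPH binding, ubiquinone biosynthetic process and steroid and cholesterol metabolism among others. Fdxr is the only listed gene under NADPH binding and under ubiquinone biosynthetic process. Of 13 listed genes under mitochondrion, 10 rose and 3 fell, the latter being Fdxr, Cdk1 and Slc25a33. Oxidoreductase activity held 10 listed genes, of which 9 rose and Fdxr fell, and steroid metabolic process held 6, of which 5 rose and Fdxr fell. Over the whole list 122 rose and 27 fell. With TMM scaling within the list, the heme exporter gene Flvcr1 (log2 -0.01) and the NADPH oxidase gene Cybb (-0.32), both among the 10, changed sign.

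Slc25a33 and Cyp1a1, which share the inner-membrane term with Fdxr, were looked up after their values had been seen. Slc25a33, a carrier of pyrimidine nucleotides, was at 36.9, 34.4 and 62.6 FPKM in IR and 27.0, 20.3 and 18.0 FPKM in TMAO+IR. It fell by 1.03 on the log2 scale in edgeR (SE 0.41), close to Fdxr in size, with IR replicate 3 well above the rest. Cyp1a1, a cytochrome P450 of xenobiotic metabolism, rose by 3.66 ± 0.40 (SE, log2). With adjustment over the implied number of genes, Slc25a33 did not pass (edgeR adjusted p = 1) and Cyp1a1 did. Genes under this term thus moved both ways.

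The genes whose pattern over the 6 libraries was most like that of Fdxr were Cdk1, Pimreg, Spc24, Ano10 and Aurkb. Likeness was measured as Pearson r of log2(CPM + 0.5), with CPM the count scaled to library size. It was 0.99 for Cdk1, 0.98 for Pimreg and 0.97 for Spc24, Ano10 and Aurkb alike. In TMAO+IR replicates 1, 2 and 3, Cdk1 rests on 20, 11 and 11 fragments, Pimreg on 12, 8 and 3, and Aurkb on 13, 10 and 6. Such low counts make the r of these genes less certain. The libraries are shared and every listed gene was selected on the same group difference, which raises r for any gene that fell. Over all 26 other lower genes r ran from 0.53 to 0.99 with a median of 0.88, and 10 of them exceeded 0.9. Cdk1, the kinase of mitotic entry, was at 1.75, 1.93 and 2.01 FPKM in IR and 0.68, 0.32 and 0.39 FPKM in TMAO+IR. Spc24, a kinetochore component, was at 4.74, 4.56 and 4.55 FPKM in IR and 2.54, 1.89 and 1.88 FPKM in TMAO+IR. Cdk1 fell by 1.92 and Spc24 by 1.24 on the log2 scale (edgeR), both more than Fdxr. Ano10, an anoctamin family gene, was far more abundant at 84.0 to 137 FPKM in IR and 42.8 to 66.3 FPKM in TMAO+IR and fell by 0.90. Ano10 did not pass with the wider adjustment (edgeR adjusted p = 1), and Cdk1, Pimreg, Spc24 (0.0454) and Aurkb did. Over the whole list, 12 of the 27 lower genes passed that adjustment. In TMAO+IR, replicate 1 was the highest library for Fdxr and for each of these 5 genes. The 5 were picked by r over the same libraries, so a shared order inside a group is partly built in and is not separate evidence.

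**Figure D5:**
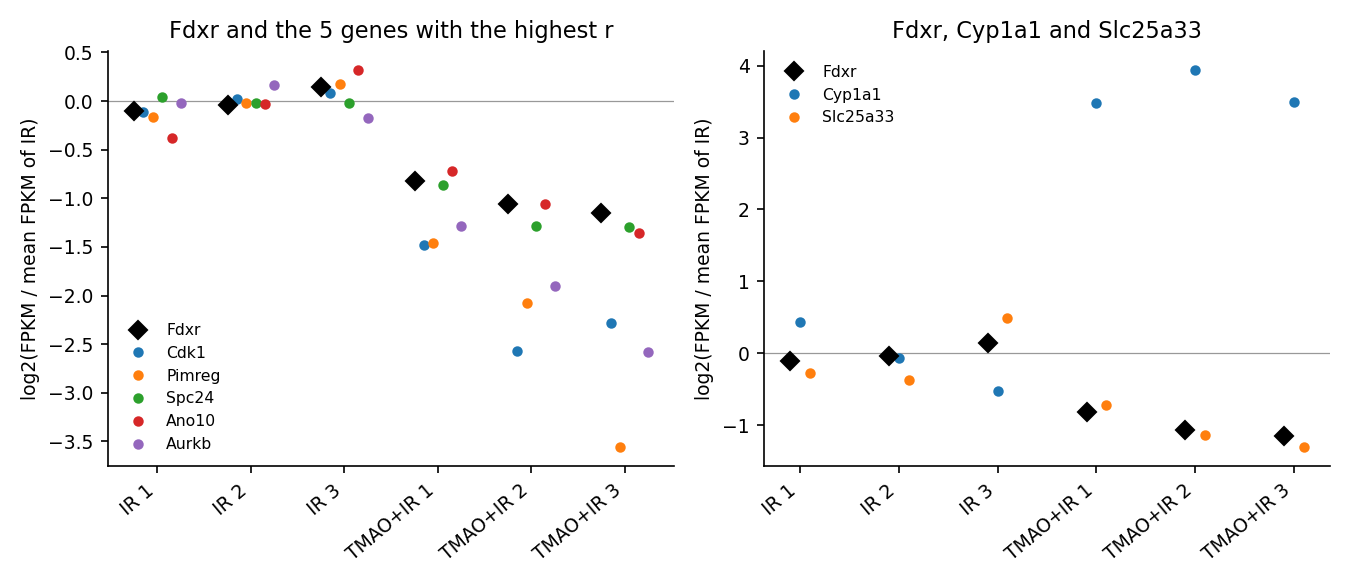
Level in each library as log2 of FPKM over the mean FPKM of IR, for Fdxr (black diamonds) with the 5 genes of highest r (left) and with Cyp1a1 and Slc25a33, which carry an inner-membrane term (right). Fdxr, Spc24, Ano10 and Slc25a33 drop by similar amounts, Cdk1, Pimreg and Aurkb drop further, and Cyp1a1 rises.

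Among the listed genes that fell, those nearest to Fdxr in level were Spc24, Ctf1 and Pfkfb1. Ctf1, which encodes cardiotrophin 1, had IR levels of 3.38, 4.45 and 4.05 FPKM and TMAO+IR levels of 1.67, 1.39 and 2.22 FPKM. Pfkfb1, a regulator of glycolysis, had 4.61, 3.64 and 2.12 FPKM in IR and 1.43, 1.09 and 2.05 FPKM in TMAO+IR, so its groups nearly met. The CV inside groups (IR, then TMAO+IR) was 2.32% and 18.0% for Spc24, 13.7% and 24.0% for Ctf1 and 36.3% and 32.0% for Pfkfb1, so Fdxr lay above Spc24 in IR and below all 3 in TMAO+IR. These genes are near in FPKM, not in counts, and Ctf1 for example rests on 68 to 104 fragments in IR and 27 to 48 in TMAO+IR. By FDR in the authors' deposited table, Fdxr (0.0065) stands between the serpin gene Serpina3f (0.00609) and Fgl2, a prothrombinase gene, which has the same FDR as Fdxr.

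The 5 listed markers of other cell types rose, in a table where 81.9% of genes did. Of 10 macrophage and monocyte markers 2 were listed, Ccr2 and Chil3, with summed levels of 1.06 to 1.83 FPKM in IR and 2.77 to 6.11 FPKM in TMAO+IR. Of 9 neutrophil markers 2 were listed, Mmp8 and Slfn4, with sums of 4.40 to 8.06 FPKM in IR and 12.2 to 14.6 FPKM in TMAO+IR. Of 7 endothelial markers Ackr1 was listed, at 0.80 to 0.88 FPKM in IR and 1.83 to 2.58 FPKM in TMAO+IR. With adjustment over the implied number of genes, Mmp8 did not pass (edgeR adjusted p = 0.462) and the other 4 did. Of all 149 listed genes 50 passed that way (33.6%), 38 of them higher. None of these 5 markers was at 0 in any library. None of the chosen markers of cardiomyocytes (14 genes), steroidogenic cells (7), fibroblasts (8) or lymphocytes (7) was listed. These lists are not complete. The cardiac myosin gene Myh7, which is on none of them, is in the deposited table, with group means of 9.24 FPKM in IR and 37.8 FPKM in TMAO+IR. The part of cell composition in the level of Fdxr was not tested.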

How the data were processed

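Poly(A)-selected RNA of 6 heart libraries (3 IR, 3 TMAO+IR) was measured. Groups and numbers come from the titles, and the T-IR columns were matched to TMAO+IR, the only other group. The submitters' processing notes name the tools HISAT2, DESeq2, edgeR, fastp 0.18.0, StringTie 1.3.1 and Bowtie2 2.2.8 and the build GRCm38, without roles. The authors deposited raw fragment counts and FPKM per gene and library for 149 selected genes. The deposited log2 fold change is the log2 ratio of the authors' group means of FPKM. The deposited p-value and FDR come from a test of theirs, and its tool is not given in those notes.

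Library sizes (18370770 to 22441959 fragments) were recovered from the count to FPKM ratio of the 86 genes that reach 1 FPKM in all libraries, and their absolute scale from 12 genes with a single transcript. Counts were tested with edgeR 4.0.16 (R 4.3.3, quasi-likelihood, no filter, Benjamini-Hochberg over the 149 genes, threshold 0.05). A check on simulated data, where most genes were unchanged, required only that mean fold changes be recovered. It does not measure the error rate in a list of selected genes. Alternatives were DESeq2 1.42.0, limma 3.58.1 on log2(FPKM + 0.1) and log2(FPKM + 1), other scalings, a filter of 50 mean counts, a replicate block and leaving out each library. Permutation tests used scipy 1.17.1. Poisson and binomial intervals are exact, 95%, and cover counting error only.

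Fdxr, the 15 gene lists (231 genes) and the tests were chosen with earlier results of these data known. Named genes are Fdxr, listed members of these lists, the 5 genes most like Fdxr, the 3 lower genes nearest in level and its neighbours in fold change and FDR. Genes sharing its deposited terms, and Myh7, were added after values had been seen. No protein sequence was used here. Values of 1 further listed gene are not reported here.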

Additional observations from a re-analysis of the deposited data

How the results depend on the processing

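The fold change of Fdxr kept its direction under all 15 alternatives and its call under 14 of them. Adjustment over the implied 12721 genes left its log2 value at -0.999 and ended the call (edgeR adjusted p = 0.295, an upper bound). The other adjusted p-values ran from 1.20e-04 (TMM) to 0.0381 (without TMAO+IR replicate 2). limma on log2(FPKM + 1) gave -0.74, since the pseudocount shrinks low genes. Of 149 listed genes past the threshold, adjustment over the implied number left 50 (38 higher, 12 lower) and TMM within the list left 34 (7 higher, 27 lower), as TMM moves the median of the list by -1.01. Leaving out 1 library gave 117 to 148 genes. Equal library sizes gave -1.11 for Fdxr. The FPKM difference ran from -2.11 to -1.77 when 1 library was left out, a value with no test. With the replicate block the log2 value was -1.001 (edgeR adjusted p = 0.00109) and 149 genes passed. The deviations from the group means correlated at -0.33, 0.36 and -0.07 between libraries of equal number (117 genes), and each library did best with its own number only for replicate 2, so the numbers are not known to pair the libraries. The log2 ratios of mean FPKM without 1 library were added after seeing the data. Depth limits Fdxr most in TMAO+IR, where 72 fragments in replicate 3 have a 95% Poisson interval of 56.3 to 90.7.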
